A study of Homo sapiens and Mus musculus with 21 samples.

Results

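The authors listed 4499 RNA regions (peaks) from a DHX15 pulldown in the human T cell leukemia line CUTLL1. Of these, 124 (2.76%) lay inside exactly 1 protein-coding gene but on the strand opposite to it. No annotated gene of any kind lay under them on the peak's own strand. These antisense peaks fell in 104 genes. The rule uses position and strand alone, from the strand given for each peak in the authors' deposited list and from RefSeq GRCh38 gene spans, and no enrichment or expression value. The peaks came from RNA immunoprecipitation (RIP), in which an antibody pulls a protein down together with its RNA: 2 libraries with a DHX15 antibody, 1 with control IgG and 1 of input RNA. Expression of the genes that hold the peaks was read in CUTLL1 libraries carrying the lentiviral hairpin shDHX15-1 (3 libraries), shDHX15-2 (3) or the control hairpin shGFP (3), and in CUTLL1 cells treated with 5 µM ciclopirox (3) or its solvent DMSO (3). The single-cell thymus libraries of the series were not used here. CUTLL1 is 1 established cell line derived from a T cell acute lymphoblastic leukemia (T-ALL), so all groups share its genotype, and nothing in the labels says that replicate libraries came from separate cultures. The p-values below therefore measure the spread between libraries, which may be technical.

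DHX15 is a DEAH-box RNA helicase that takes spliceosomes apart after splicing and acts in ribosome assembly. It is switched on by partner proteins that carry a G-patch domain. RNA made from the strand opposite to a gene can come from dedicated antisense genes, from transcription that starts at a neighbouring gene's promoter and runs the other way, or from transcription that continues past the end of a neighbouring gene on that strand. Ciclopirox is an antifungal drug that chelates iron.

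Strand decided membership, and its limits bear on every count. The strand of the peak's gene was known for 3099 of the 3770 peaks that lay inside exactly 1 coding gene. The gene's own strand was carried by 2868 of those 3099 peaks, and the opposite strand by 231 (7.45%, exact binomial 95% interval 6.55% to 8.44%, covering counting error only). The share was 7.23% for genes on the plus strand and 7.71% for genes on the minus strand. An annotated gene on the peak's own strand lay under 88 of the 231 opposite-strand peaks, and only a gene of unknown strand lay under 19 more, which left the 124 antisense peaks. They were set beside 2509 same-strand peaks, which lay in 1 coding gene, on its strand, with no gene on the other strand and no gene of unknown strand beneath them. Whether the RIP libraries kept the strand of the RNA, and how the list's strand column was filled, is not stated by the labels or the list. The list names no genome build; peak positions are printed as deposited and were read against GRCh38, with 35 of the 3099 peaks having an edge within 2 bp of their gene's edge. Which libraries the fold enrichment compares is likewise not given. Peaks have no values per library, so every peak count below is a description with no replicate error.

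A window around an annotated gene start on the peak's own strand (250 bases before to 50 after) was overlapped by 11 of the 124 antisense peaks (8.87%), for which it is the start of another gene. It was overlapped by 230 of the 2509 same-strand peaks (9.17%), for which the start of the gene that holds the peak also counts. With windows on either strand the counts were 15 (12.1%) and 252 (10.0%). In these counts windows were matched by chromosome name and position and were not restricted to GRCh38. A window of another build at the same numbers would count as an overlap, so the counts are upper limits. The 5 sequences below are shown because in each a whole antisense peak lay upstream of the start of a neighbouring gene on the peak's own strand, which is where the position of a peak can be read against a promoter. Each is the 250 bases before that neighbour's start, 5′ to 3′ on the peak's strand, from RefSeq GRCh38.p14, with the antisense peak in capitals.
AUP1: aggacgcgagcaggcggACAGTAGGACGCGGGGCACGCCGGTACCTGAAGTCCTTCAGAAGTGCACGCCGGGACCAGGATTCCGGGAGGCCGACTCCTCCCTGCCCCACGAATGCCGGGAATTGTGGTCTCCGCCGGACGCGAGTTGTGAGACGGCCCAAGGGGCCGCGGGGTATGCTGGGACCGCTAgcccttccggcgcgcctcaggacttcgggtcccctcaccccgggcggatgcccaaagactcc
THAP11: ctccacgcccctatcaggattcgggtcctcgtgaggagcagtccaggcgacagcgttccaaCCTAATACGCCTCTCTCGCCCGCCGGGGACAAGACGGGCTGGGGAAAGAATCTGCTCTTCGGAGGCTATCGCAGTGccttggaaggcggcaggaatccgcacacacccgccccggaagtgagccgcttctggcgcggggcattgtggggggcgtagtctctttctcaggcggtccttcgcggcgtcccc
NAA16: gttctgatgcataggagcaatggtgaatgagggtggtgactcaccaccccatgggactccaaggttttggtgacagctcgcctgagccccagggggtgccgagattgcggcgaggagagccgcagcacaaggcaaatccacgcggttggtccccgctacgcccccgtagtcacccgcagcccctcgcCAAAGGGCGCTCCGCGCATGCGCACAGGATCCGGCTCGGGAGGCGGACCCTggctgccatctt
LNPEP: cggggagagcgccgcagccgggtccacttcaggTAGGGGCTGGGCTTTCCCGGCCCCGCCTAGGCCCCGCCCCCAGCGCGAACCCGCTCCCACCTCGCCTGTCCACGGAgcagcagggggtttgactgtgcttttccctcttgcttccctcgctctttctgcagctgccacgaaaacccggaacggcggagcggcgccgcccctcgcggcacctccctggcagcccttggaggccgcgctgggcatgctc
TRIP13: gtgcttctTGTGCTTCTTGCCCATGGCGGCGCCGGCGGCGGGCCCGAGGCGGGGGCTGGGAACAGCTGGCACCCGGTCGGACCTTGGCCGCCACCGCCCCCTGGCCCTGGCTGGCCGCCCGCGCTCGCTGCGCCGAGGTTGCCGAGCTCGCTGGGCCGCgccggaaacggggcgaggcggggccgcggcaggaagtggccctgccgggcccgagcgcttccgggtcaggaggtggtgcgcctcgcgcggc
The AUP1 sequence is chr2:74529707-74529956 on the minus strand and its capitals are the antisense peak of HTRA2. The THAP11 sequence is chr16:67842070-67842319 on the plus strand, with the antisense peak of CENPT. The NAA16 sequence is chr13:41311017-41311266 on the plus strand, with the antisense peak of MTRF1. The LNPEP sequence is chr5:96935830-96936079 on the plus strand, with the antisense peak of the predicted coding gene LOC124901030. The TRIP13 sequence is chr5:892634-892883 on the plus strand, with the antisense peak of BRD9. The 5 peaks held 61.8% to 79.5% G or C. The median was 58% over 35116 stretches of 250 bases before gene starts. They were not restricted to GRCh38, so values over them may not be those of GRCh38 alone. Those stretches are longer than the peaks of 51 to 171 bp, so the values are not like for like. Neither GTAAGT, the core of a 5′ splice site, nor AATAAA, the polyadenylation signal, was found on either strand in any of the 5 sequences. Over those 35116 stretches, 5.22% held GTAAGT or its reverse complement ACTTAC and 16.0% held AATAAA or its reverse complement TTTATT. Their absence from 5 windows says only that these letters are not there.

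The HTRA2 peak had the lowest FDR of the antisense peaks, 1.22e-44, with a fold enrichment of 2.71 in the authors' list. It was 171 bp long and ended 63 bp before the start of AUP1, a protein of lipid droplets and of protein degradation at the endoplasmic reticulum, on AUP1's strand. HTRA2 encodes a mitochondrial serine protease and starts head to head with AUP1, the spans of the 2 genes overlapping by 302 bp. The peaks opposite to CENPT, MTRF1, LOC124901030 and BRD9 had folds of 1.92, 1.52, 1.51 and 1.5005 and were 76, 51, 76 and 151 bp long.

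Antisense peaks were shorter than same-strand peaks. Their median length was 126 bp (quartiles 76 and 307 bp, range 51 to 16587 bp), against 351 bp for same-strand peaks (76 and 1744 bp, range 51 to 285674 bp). Peaks under 200 bp made up 76 of 124 antisense peaks (61.3%) and 1021 of 2509 same-strand peaks (40.7%). At the other end, 9 antisense peaks (7.26%) and 568 same-strand peaks (22.6%) were 2000 bp or longer. The shortest length in the list, 51 bp, was that of 20.2% of antisense and 17.1% of same-strand peaks. Lengths followed a grid: 79.0% of antisense and 52.4% of same-strand peaks measured 51 bp plus a multiple of 25 bp. The difference therefore lay in the lengths just above the shortest and in the long tail.

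**Figure D1:**
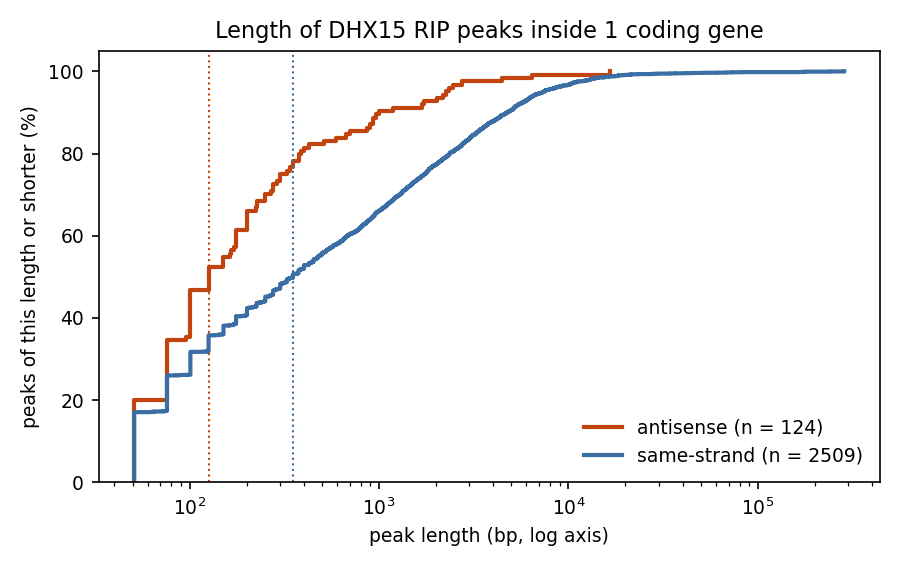
Cumulative share of peaks (vertical axis, percent) at or under each length (horizontal axis, bp, log scale) for 124 antisense peaks (orange) and 2509 same-strand peaks (blue). Dotted lines mark the medians of 126 bp and 351 bp, and the antisense curve lies above the same-strand curve over most of the range.

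The enrichment the authors gave to antisense peaks was in the range of the others. The median fold enrichment was 1.71 (quartiles 1.59 and 1.92) for antisense and 1.63 (1.55 and 1.80) for same-strand peaks. A fold of at least 2 was reached by 22 antisense peaks (17.7%) and 304 same-strand peaks (12.1%). A fold of at least 3 was reached by 3 and 28 peaks (2.42% and 1.12%). The lowest fold was 1.5005 among antisense and 1.5001 among same-strand peaks, and the median score was 10.0 for antisense and 11.1 for same-strand peaks.

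The 12 antisense peaks with the highest fold lay in 12 different genes. The top peak, at 4.57-fold, was chr19:17177510-17178476 on the minus strand, 967 bp within MYO9B, which encodes an unconventional myosin. It lay 101733 bp into the gene, and the nearest peak of the other strand was 108227 bp away. A peak of 389 bp 1203 bp into S100PBP had a fold of 3.36, and a peak of 76 bp in CIDEB, a lipid droplet protein gene, had 3.35. Next came SGSM2 (2.91), the scaffold gene AKAP13 (2.79), HTRA2 (2.71) and the stress granule protein gene ATXN2L (2.58). The list closed with the centriole gene PPP1R35 (2.50), the tubulin gene TUBA8 (2.49), the tropomyosin gene TPM4 (2.48), the NuRD subunit gene MTA1 (2.47) and the profilin gene PFN1 (2.28). Of these 12 genes, 5 also held a same-strand peak (SGSM2, HTRA2, TPM4, MTA1 and PFN1), and the other 7 did not.

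Long antisense peaks were few. The longest, 16587 bp at chr22:38057354-38073940 on the minus strand, ran from 99 bp after the start to 1761 bp before the end of PICK1, a PDZ-domain scaffold gene, and overlapped a peak on the other strand. It was followed by 6420 bp in ATXN2L, 4443 bp in OGFOD2, 2756 bp in MTA1 and 2451 bp in PARVG. The peaks of OGFOD2 and PARVG also overlapped a peak of the other strand, while that of ATXN2L lay 27690 bp from the nearest.

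Taken over all folds, antisense and same-strand peaks were spread much alike along the gene. The median midpoint lay at 0.67 of the gene span from start to end for antisense peaks and at 0.61 for same-strand peaks. Among peaks with a fold of at least 2 the medians lay further apart, at 0.439 for 22 antisense and 0.629 for 304 same-strand peaks. The first 20% of the gene span held 28 of 124 antisense peaks (22.6%) and 540 of 2509 same-strand peaks (21.5%), and the last 20% held 44 (35.5%) and 863 (34.4%). Within 1 kb of the gene's start lay 21.8% of antisense and 18.2% of same-strand peaks, and within 1 kb of its end 12.1% and 15.4%. The genes were of like size, with a median span of 25763 bp over antisense peaks and 28214 bp over same-strand peaks. The 5 antisense peaks nearest to a gene start lay 9 bp (BRD9), 99 bp (PICK1), 119 bp (MORC3), 127 bp (EIF4A2) and 137 bp (LOC124901030) inside it. Whether a peak lay in an exon, intron or UTR of its gene was not analysed here, since no exon annotation was used.

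**Figure D2:**
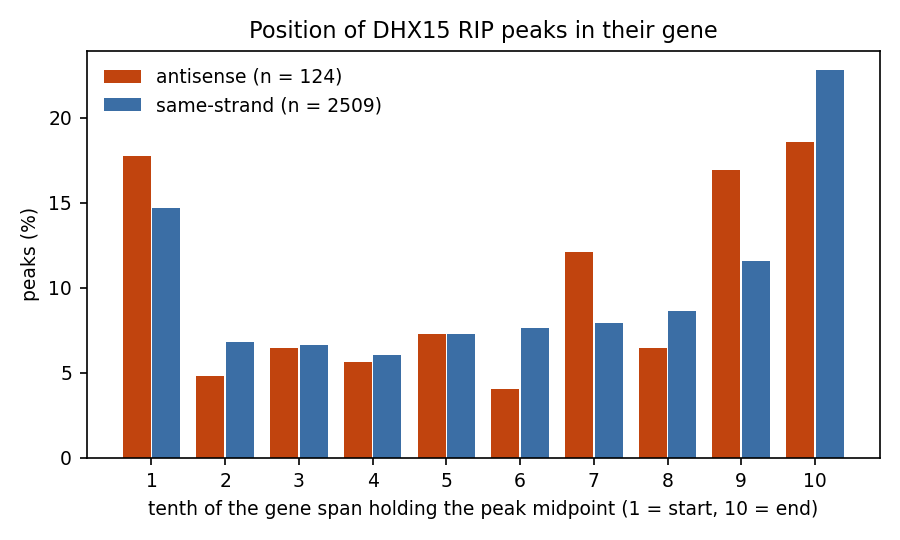
Share of peaks (vertical axis, percent) by the 10% step of the gene span that holds the peak midpoint (horizontal axis, 1 at the gene's start and 10 at its end), for 124 antisense (orange) and 2509 same-strand peaks (blue). Both groups are highest in the last step, at 18.5% and 22.8%, and the first step is also high, at 17.7% and 14.7%.

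What lay near the antisense peaks differed more. Along the strand opposite to the peak's gene, the end of another gene lay within 10 kb upstream of 49 antisense peaks (39.5%) and of 26.9% of same-strand peaks. The median distance to that gene end was 15244.5 bp for antisense and 29470 bp for same-strand peaks. The start of another gene on that strand lay within 1 kb downstream of 18 antisense peaks (14.5%) and of 6.30% of same-strand peaks. Within 50 kb on either side the groups were close, at 79.0% and 80.2%. Only genes whose strand was known entered these distances, 48.6% of all genes in the annotation and 79.0% of the coding ones.

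Peaks on the other strand were also nearby. A peak on the other strand overlapped 17 antisense peaks (13.7%) and 20 same-strand peaks (0.797%), and one lay within 1 kb of 24.2% and 1.95%. By construction the partners of antisense peaks are drawn from the many peaks on a gene's own strand and those of same-strand peaks from the few opposite ones, so these shares rest on unequal numbers of possible partners. Of the 104 genes, 44 also held a same-strand peak, counted where it lay wholly inside that coding gene and no other, and 60 did not. Peaks that ran past a gene's edge or lay in 2 coding genes were not counted. The same holds throughout where a gene is said to hold no same-strand peak.

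**Figure D3:**
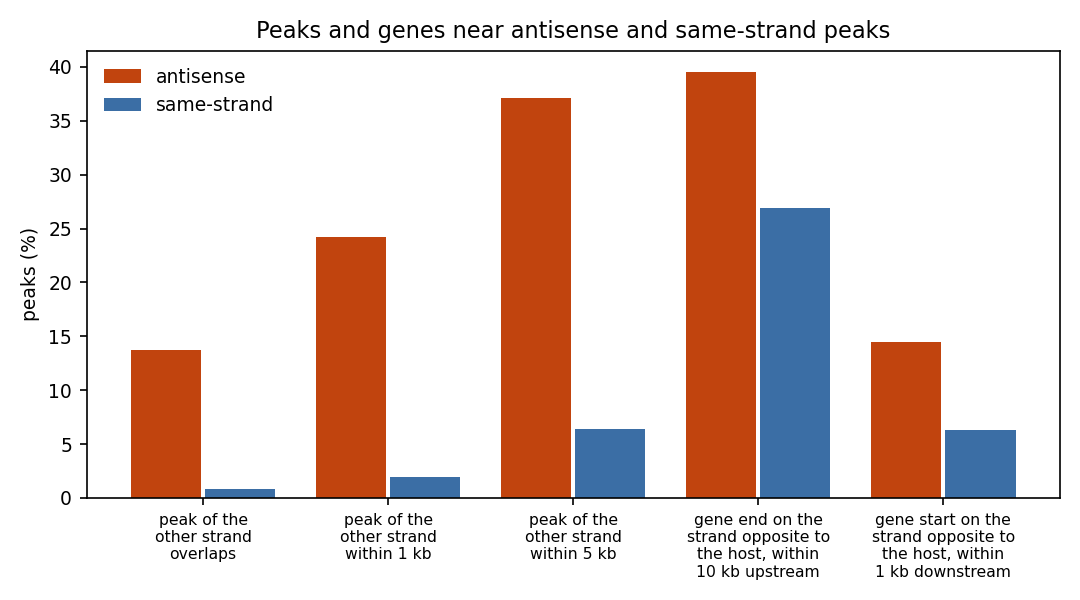
Share of peaks (vertical axis, percent) with the neighbour named under each pair of bars, for antisense (orange) and same-strand peaks (blue). The shares are 13.7% and 0.797%, 24.2% and 1.95%, and 37.1% and 6.38% for a peak of the other strand, then 39.5% and 26.9% for a gene end upstream and 14.5% and 6.30% for a gene start downstream.

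The 6 antisense peaks closest behind the end of a gene on their own strand followed 6 different genes. They lay 31 bp after TEPSIN-AS1 inside TEPSIN, 717 bp after NOP9 inside CIDEB, 751 bp after CZIB inside CPT2, 868 bp after SEBOX inside VMA12, 1151 bp after HSPB6 inside LIN37 and 1158 bp after KLC1 inside XRCC3. Of the 38 genes that ended within 10 kb before an antisense peak, 11 held a DHX15 peak of their own on their own strand. Of the 18 genes that started within 1 kb after an antisense peak, 4 did. Such a peak was counted only where it lay wholly inside 1 coding gene and no other. Non-coding neighbours such as TEPSIN-AS1 and PRPF31-AS1 could therefore hold none, though both counts include them in their totals. Of all 15843 coding genes of known strand, 1738 held a peak of the 2509 same-strand peaks. That group is defined more narrowly, so the shares are not like for like, and the difference was not tested.

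Most genes held 1 antisense peak, 11 held more. TOP3B, which encodes a topoisomerase of DNA and RNA, held 7 antisense peaks of 51 to 901 bp all at or beyond 0.547 of the way along the gene, with folds of 1.51 to 1.96, beside 4 same-strand peaks. XRCC3, a DNA repair gene, held 6 antisense peaks of 76 to 926 bp with folds of 1.66 to 2.08 and no same-strand peak. All 6 followed the end of KLC1, a kinesin light chain gene on the plus strand whose end lies inside XRCC3, at distances of 1158, 1983, 5833, 7108, 9408 and 9833 bp. Antisense peaks of 1 gene share its locus and are not independent.

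SGSM2, which encodes a Rab GTPase-activating protein, and MNT, a MAX-binding transcriptional repressor gene, point at each other on chromosome 17, and each held 2 antisense peaks. The peaks in SGSM2 were chr17:2375185-2377523 and chr17:2377573-2379297 on the minus strand, 6550 and 4776 bp beyond the end of MNT. The peaks in MNT were chr17:2385271-2386274 and chr17:2386324-2386664 on the plus strand, 4217 and 5270 bp beyond the end of SGSM2. Their folds were 2.91 and 1.76 in SGSM2 and 2.24 and 1.99 in MNT. SGSM2 also held 4 and MNT 3 same-strand peaks. PIEZO1, EIF4A2, ZNF862, MTSS2, PLA2G6, APC2 and SMURF1 also held 2 antisense peaks each.

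The knockdown was checked on its target. DHX15 had 17.1, 17.3 and 16.5 RPKM (reads per kilobase of gene, scaled to library size) in shDHX15-1 libraries and 16.1, 16.5 and 16.8 in shDHX15-2 libraries, against 42.8, 44.1 and 43.2 in shGFP libraries. All 6 knockdown libraries lay below all 3 shGFP libraries, with log2 changes of -1.30 and -1.34 (SE 0.025 each, limma adjusted p = 1.06e-09 and 1.83e-09). With ciclopirox DHX15 had 9218, 8967 and 10216 normalised counts, against 14498, 16688 and 16311 with DMSO, a log2 difference of -0.74 (SE 0.092, limma adjusted p = 8.7e-05). DHX15 itself held no antisense peak. Of 10 T-ALL markers 9 were listed, all above 1 RPKM, and their sum was 935 to 944 RPKM in shDHX15-1, 1015 to 1036 in shDHX15-2 and 821 to 862 in shGFP libraries. Of 13 markers of B, myeloid, erythroid, stromal and epithelial cells only CD79A, CD68 and PECAM1 were listed, with sums of 55.8 to 57.5, 83.3 to 84.7 and 47.0 to 49.0 RPKM, and the part of either list in the results was not tested. In bulk RNA, fewer cells of a type and less RNA per cell cannot be told apart.

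Of the 104 genes with an antisense peak, 102 were listed in the RPKM table, with mean levels in shGFP libraries from 0.282 to 717 RPKM and a median of 7.85 RPKM. Genes were tested where they reached 1 RPKM in at least 3 libraries, which 98 did. The 4 listed genes under that minimum were APC2, FHOD3, GUCY2D and TUBA8, with 0.474, 0.282, 0.310 and 0.602 RPKM in shGFP libraries.

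After DHX15 knockdown, the genes opposite to antisense peaks moved in numbers close to those of other genes with peaks. Genes were called at a limma adjusted p under 0.05, and fold changes are on the log2(RPKM + 1) scale, which understates those of low genes. With shDHX15-1, 54 of the 98 tested genes were higher and 27 lower than in shGFP, where 45.4% of all genes tested were called higher and 28.9% lower. With shDHX15-2, 38 were higher and 29 lower, where the shares over all genes were 35.6% and 30.1%. In the same direction with both hairpins, 36 were higher and 19 lower (36.7% and 19.4%), where the shares were 28.8% and 20.4%. Of 1578 tested genes with same-strand peaks only, 36.1% and 19.4% were called with both hairpins. The hairpins share their shGFP libraries.

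The split between higher and lower changed with the scaling. The median log2 change of all genes tested with shDHX15-1 was -0.02 after centring each library on its median and 0.09 as deposited, and that of the antisense-peak genes as deposited was 0.13, little above it. After centring, 39 antisense-peak genes were higher and 37 lower with shDHX15-1, and 27 were higher and 27 lower with both hairpins. Over all genes, 46.0% of called genes were higher with shDHX15-1 after centring and 61.1% as deposited, and for both hairpins 44.5% and 58.5%. After centring, 5058 of all 15022 genes tested were higher and 5940 lower with shDHX15-1, and 3264 and 4067 with both hairpins.

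With ciclopirox fewer of the genes were called lower than higher. Of 95 tested genes, 28 were higher and 15 lower than with DMSO, where 23.5% of all genes tested were called higher and 25.0% lower. Genes with same-strand peaks only were called higher in 34.3% and lower in 22.1% of 1612 tested. The 42 tested genes that also held a same-strand peak counted 19 higher and 2 lower. The 53 without a same-strand peak so defined counted 9 higher and 13 lower, a difference that was not tested. After median centring 25 of the 95 genes were higher and 19 lower, and under quantile normalisation 39 were higher and 10 lower. Over all genes, 40.1% of called genes were higher after centring, 49.4% under quantile normalisation and 48.5% as deposited. Of all 16825 genes tested, 3350 were higher and 5011 lower after centring, and 3934 and 4022 under quantile normalisation. Of 91 genes tested in both experiments, 16 were higher with both hairpins and with ciclopirox, 6 lower in all, and 3 higher with the hairpins and lower with the drug (17.6%, 6.59% and 3.30%). The shares were 17.8%, 10.1% and 3.98% of 1532 genes with same-strand peaks only, and 11.8%, 13.9% and 3.98% of all 10404 genes tested in both.

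**Figure D4:**
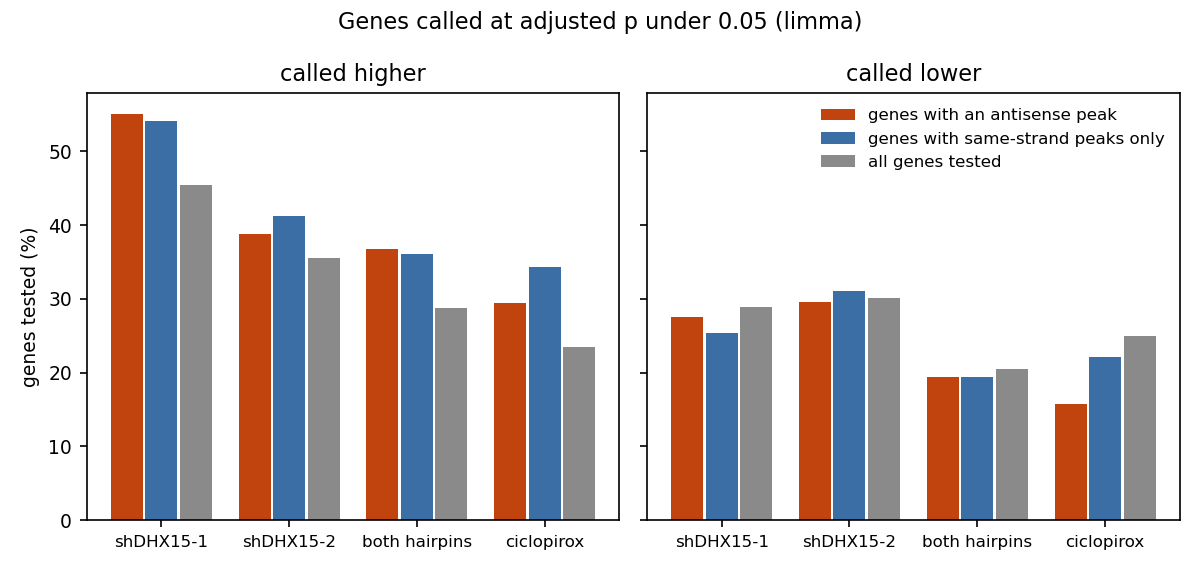
Share of tested genes (vertical axis, percent) called higher (left) or lower (right) at a limma adjusted p under 0.05 in each comparison, for genes with an antisense peak (orange, 98 in knockdown and 95 with ciclopirox), genes with same-strand peaks only (blue, 1578 and 1612) and all genes tested (grey, 15022 and 16825). With both hairpins 36.7%, 36.1% and 28.8% were called higher.

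ACSF3 and PLA2G6 led the genes that rose with both hairpins, ranked by the smaller of their log2 changes. ACSF3, a mitochondrial malonyl-CoA synthetase gene, had 9.86, 9.70 and 9.94 RPKM in shDHX15-1 and 6.93, 7.42 and 7.06 RPKM in shDHX15-2 libraries, against 4.18, 3.99 and 4.67 RPKM in shGFP libraries. The 3 groups did not overlap. The log2 changes were 1.04 and 0.63 (SE 0.047 each, limma adjusted p = 1.07e-07 and 4.24e-06). ACSF3 was also higher with ciclopirox, by 0.61 (SE 0.107, limma adjusted p = 0.000806).

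PLA2G6, which encodes a calcium-independent phospholipase A2 and held 2 antisense and 2 same-strand peaks, rose in all 3 comparisons. It had 6.68, 6.68 and 6.63 RPKM in shDHX15-1 and 5.79, 5.98 and 5.79 RPKM in shDHX15-2 libraries, against 3.98, 3.91 and 4.02 RPKM in shGFP libraries. With ciclopirox it had 2809, 2811 and 2639.7 normalised counts, against 1538, 1168 and 1378 with DMSO. No treated library overlapped its controls, and the log2 changes were 0.62, 0.46 and 1.02 (SE 0.026, 0.026 and 0.114, limma adjusted p = 7.49e-08, 8.17e-07 and 4.29e-05).

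MYO9B, which held the most enriched antisense peak and no same-strand peak, had 28.5, 29.0 and 28.5 RPKM in shDHX15-1 and 26.1, 26.0 and 25.6 RPKM in shDHX15-2 libraries, against 20.7, 19.8 and 21.1 RPKM in shGFP libraries. The groups did not overlap, with log2 changes of 0.46 and 0.32 (SE 0.025 each, limma adjusted p = 3.19e-07 and 5.34e-06). With ciclopirox it was higher by 0.57 (SE 0.097, limma adjusted p = 0.000714). The other highest-ranked rises in both hairpins were LRRC1 (0.49 and 0.46), the adaptor accessory gene TEPSIN (0.54 and 0.45) and PKD1 (0.63 and 0.41). GNPTG (0.64 and 0.39), which helps tag lysosomal enzymes, and PDE6B (0.52 and 0.34) followed. PKD1 has near-identical pseudogenes on its chromosome, so its reads are uncertain.

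SLC18A2, PRPF31, CIDEB and GPATCH4 led the genes that fell with both hairpins. GPATCH4, a nucleolar G-patch protein gene, held 1 antisense peak of 101 bp with a fold of 1.76 at chr1:156599091-156599191 on the plus strand and no same-strand peak. It had 3.95, 4.16 and 4.37 RPKM in shDHX15-1 and 7.31, 7.31 and 6.91 RPKM in shDHX15-2 libraries, against 9.64, 9.56 and 9.93 RPKM in shGFP libraries. With ciclopirox it had 1691, 1649.9 and 1460.2 normalised counts, against 3586, 3223 and 3500.0 with DMSO. All treated libraries were below their controls, and shDHX15-1 libraries were below shDHX15-2 libraries. The log2 changes were -1.05, -0.39 and -1.10 (SE 0.037, 0.037 and 0.099, limma adjusted p = 2.74e-08, 1.92e-05 and 9.84e-06).

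PRPF31, a protein gene of the U4/U6 small nuclear ribonucleoprotein, had 21.8, 20.5 and 21.4 RPKM in shDHX15-1 and 23.2, 23.1 and 21.8 RPKM in shDHX15-2 libraries, against 32.2, 30.7 and 30.8 RPKM in shGFP libraries. The knockdown groups overlapped each other but not shGFP, with log2 changes of -0.54 and -0.44 (SE 0.034 each, limma adjusted p = 8.34e-07 and 4.84e-06). With ciclopirox it fell by 0.47 (SE 0.128, limma adjusted p = 0.0109), a call lost under quantile normalisation. SLC18A2, the vesicular monoamine transporter gene, was lowest in shDHX15-2 libraries (14.3, 14.0 and 14.0 RPKM, with 15.6, 15.5 and 15.1 in shDHX15-1, against 21.6, 21.7 and 22.8 in shGFP), with log2 changes of -0.49 and -0.61 (limma adjusted p = 2.31e-07 and 1.29e-07). The other falls that ranked highest were SLC38A2, an amino acid transporter gene (-0.37 with shDHX15-1 and -0.42 with shDHX15-2), GLUD1 (-0.29 and -0.53), VMA12 (-0.31 and -0.27) and NDUFS7 of respiratory complex I (-0.26 and -0.28).

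**Figure D5:**
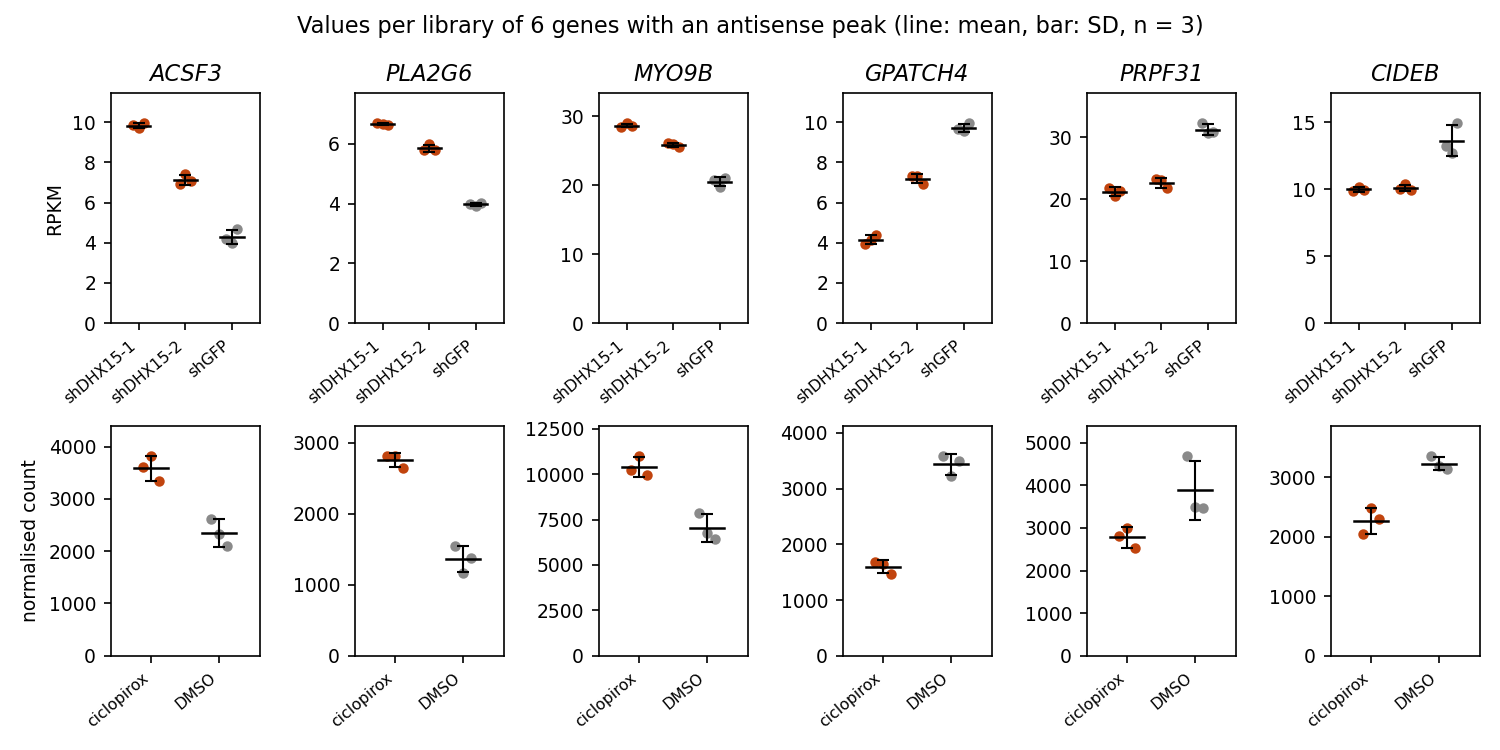
RPKM (upper row) and normalised counts (lower row) per library for 6 genes with an antisense peak, with treated libraries in orange left of their controls in grey, the mean as a line and the SD as a bar (n = 3). ACSF3, PLA2G6 and MYO9B lie above and GPATCH4, PRPF31 and CIDEB below their controls in every group shown.

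MTSS2 led the rises with ciclopirox. MTSS2, which encodes a membrane-bending actin regulator and held 2 antisense peaks near its end, had 2640.4, 2926 and 2549.6 normalised counts with ciclopirox, against 1227, 882 and 939 with DMSO. Its log2 change was 1.42 (SE 0.132, limma adjusted p = 1.2e-05). In the knockdown it had 6.07, 6.49 and 6.01 RPKM in shDHX15-2 libraries, against 8.16, 7.39 and 8.63 RPKM in shGFP libraries, a change of -0.33 (SE 0.051, limma adjusted p = 0.000411), and shDHX15-1 libraries overlapped shGFP. PDE1B, a calmodulin-dependent phosphodiesterase gene, likewise rose by 1.33 with ciclopirox (limma adjusted p = 1.67e-05) and fell by 0.27 with shDHX15-2 (limma adjusted p = 0.000447).

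GUCY2D, a guanylate cyclase gene, rose by 1.38 with ciclopirox from low levels (164, 195 and 139.9 normalised counts, against 72.4, 68.6 and 50.1 with DMSO). It was under the minimum for testing in the knockdown. The further rises were GNA11, a G protein subunit gene (1.25), APC2 (1.16), PLA2G6 (1.02, given above), SRD5A3 (0.97) and SMO of Hedgehog signalling (0.96). GNA11, like PLA2G6, also rose with both hairpins, by 0.76 and 0.31 (SE 0.054 each, limma adjusted p = 1.72e-06 and 0.000752). Each was higher in all 3 ciclopirox libraries than in any DMSO library.

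After GPATCH4 the largest falls with ciclopirox were BRD9, a chromatin remodelling subunit gene, with 2412, 2554 and 2467 normalised counts with ciclopirox against 4164, 4077 and 4196 with DMSO (log2 change -0.74, SE 0.085, limma adjusted p = 4.98e-05), and SNUPN, which imports small nuclear ribonucleoproteins (-0.67, SE 0.140, limma adjusted p = 0.00254). EIF4A2, a translation initiation helicase gene with 2 antisense peaks starting 127 and 502 bp into the gene, had 10489.9, 10866 and 10649.7 normalised counts with ciclopirox, against 16298, 15799 and 16339.7 with DMSO. The libraries did not overlap (log2 change -0.60, SE 0.077, limma adjusted p = 0.000113). In the knockdown SNUPN and EIF4A2 were called higher with both hairpins, by 0.14 and 0.33 for SNUPN and by 0.08 and 0.13 for EIF4A2. The sign of EIF4A2 with shDHX15-1 turned negative under median centring and in both count-based fits, so its direction there is uncertain, and the call of SNUPN with shDHX15-1 was lost in the same fits, under quantile normalisation, and without shDHX15-1 replicate 3, shGFP replicate 2 or shGFP replicate 3. PEMT (-0.58), CIDEB (-0.51), PPP1R35 (-0.51) and PRPF31 (-0.47) completed the 8 largest falls, of which PPP1R35 lost its call without DMSO replicate 1, ciclopirox replicate 1 or ciclopirox replicate 3. TUBA8 fell further, by 2.01, to 19.1, 19.9 and 5.75 normalised counts, against 53.1, 63.6 and 52.1 with DMSO, and was below the level set for that ranking.

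Overlap with a gene on the other strand limits what these values say. The span of 37 of the 104 genes (35.6%) overlapped a gene on the other strand, as did 32.1% of 1682 genes with same-strand peaks only. The libraries of the knockdown and drug experiments were not stated to be counted by strand, and without strand the reads of a gene and its antisense partner cannot be told apart. CIDEB overlaps NOP9, a small-subunit ribosome assembly gene, by 3938 bp. CIDEB had 9.84, 10.2 and 9.94 RPKM in shDHX15-1 and 9.99, 10.4 and 9.96 RPKM in shDHX15-2 libraries, against 13.2, 12.7 and 14.9 RPKM in shGFP libraries. NOP9 had 10.5, 10.6 and 10.3 RPKM in shDHX15-1 and 10.2, 10.8 and 10.2 RPKM in shDHX15-2 libraries, against 13.8, 13.5 and 15.0 RPKM in shGFP libraries.

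The changes of CIDEB and NOP9 were near equal in the knockdown, at -0.41 and -0.40 with shDHX15-1 and at -0.39 and -0.41 with shDHX15-2. With ciclopirox they were -0.51 and -0.86. Other pairs moved apart: PIEZO1, a mechanosensitive channel gene, rose by 0.20 with shDHX15-1 where CTU2, a tRNA thiolation gene that ends in it, fell by 1.25, and CENPT rose by 0.33 where THAP11, which lies inside its span, fell by 0.35. Of 24 overlapping pairs with both genes tested in the knockdown, both were called with shDHX15-1 in 15 (62.5%), of which 10 moved the same way, and with shDHX15-2 in 17 (70.8%), of which 10 did. With ciclopirox both were called in 8 of 32 pairs, of which 7 moved the same way. Among such pairs of genes with same-strand peaks only, both were called in 190 of 285 with shDHX15-1 (131 the same way), in 142 of 285 with shDHX15-2 (94) and in 119 of 360 with ciclopirox (102). Of all genes tested, 74.3%, 65.7% and 48.5% were called in either direction in these comparisons. These are shares of single genes and not of pairs with both called, so the pairs with same-strand peaks only are the like comparison.

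Genes that neighbour an antisense peak on its own strand were read in the same fits. Of 28 tested genes that ended within 10 kb before an antisense peak, 9 were higher and 10 lower with both hairpins, where the shares over all genes were 28.8% and 20.4%, with a median log2 change of -0.07 over the mean of the hairpins. With ciclopirox 10 of 31 were higher and 10 lower (median 0.11), where the shares were 23.5% and 25.0%. Of the genes that started within 1 kb after an antisense peak, 2 of 13 were higher and 3 lower with both hairpins, and 2 of 16 were higher and 5 lower with ciclopirox. KLC1, whose end precedes the 6 XRCC3 peaks, was higher with shDHX15-1 by 0.18 (SE 0.038, limma adjusted p = 0.00188) and lower with shDHX15-2 by 0.12 (SE 0.038, limma adjusted p = 0.0237). The first call was lost under median centring and quantile normalisation, and the second without shDHX15-2 replicate 3, shGFP replicate 1 or shGFP replicate 3. XRCC3 changed by 0.03 and -0.18 (limma adjusted p = 0.305 and 0.000415). SGSM2 rose by 0.69 and 0.14 (SE 0.020 each, limma adjusted p = 9.61e-09 and 0.000328), and its convergent partner MNT changed by 0.10 and 0.01 (limma adjusted p = 0.0758 and 0.834).

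TOP3B, the gene with the most antisense peaks, had 6.64, 6.64 and 6.35 RPKM in shDHX15-1 and 6.15, 6.08 and 5.93 RPKM in shDHX15-2 libraries, against 7.57, 8.25 and 7.73 RPKM in shGFP libraries. All knockdown libraries were below all shGFP libraries (log2 changes -0.23 and -0.33, SE 0.035 each, limma adjusted p = 0.000273 and 3.89e-05). With ciclopirox and DMSO its libraries overlapped (0.11, SE 0.108, limma adjusted p = 0.404). HTRA2 fell by 0.24 with shDHX15-1 (SE 0.029, limma adjusted p = 5.61e-05), as AUP1 did by 0.20 (SE 0.027, limma adjusted p = 0.00012), and neither was called in the other comparisons.

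Of 10 gene lists read for antisense peaks, 4 held 1 each. Only genes of known strand could hold one, and 0.656% of all 15843 coding genes of known strand did. The 4 were GPATCH4 among 18 G-patch proteins of known strand, PRPF31 among 44 spliceosome genes, LAT among 20 T cell identity genes and SLC7A6 among 36 genes of mTORC1 and amino acid sensing. Counts of 0 or 1 in lists of this size say nothing of the lists. The lists of splicing regulators, ribosome biogenesis, NOTCH1 targets, chromatin regulators, hypoxia response and p53 targets held none. LAT, the adaptor of the T cell receptor, had 64.3, 62.8 and 63.4 RPKM in shDHX15-1 and 50.8, 51.1 and 51.2 RPKM in shDHX15-2 libraries, against 46.4, 47.7 and 46.4 RPKM in shGFP libraries. It rose without overlap of the groups (log2 changes 0.43 and 0.12, SE 0.018 each, limma adjusted p = 7.15e-08 and 0.000295). The amino acid exchanger gene SLC7A6 fell by 0.33 and 0.15 (limma adjusted p = 5.88e-06 and 0.00144), and SLC7A6OS, which overlaps it by 3786 bp on the other strand, by 0.30 and 0.07 (limma adjusted p = 2.13e-06 and 0.0169, the second call lost without shDHX15-2 replicate 3 or shGFP replicate 1).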

How the data were processed

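RNA was read from CUTLL1 cells in RIP, hairpin and drug experiments. The authors' deposited peak list gives each peak a strand, a fold enrichment (a ratio), a p-value with FDR, and a score that equals minus log2 of the FDR. The sources used here give no peak caller. The authors deposited RPKM per gene for the hairpin libraries (59702150 to 62633707 reads each), and for the drug libraries a normalised signal, counts divided by a size factor (32451469 to 37177509 reads in genes), beside their own log2 fold changes, which were not used. The submitters' processing notes name STAR 2.4.1.7 and 2.7.5c, DESeq and DESeq2 1.32.0, with builds listed without roles.

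Gene spans came from RefSeq GRCh38.p14 and gene strands from its promoter and miRNA tables, which gave strand for 15843 of 20056 coding genes. Members, lists and tests were chosen with earlier results of these data known. limma 3.58.1 (R 4.3.3, trended variance) was fitted on log2(RPKM + 1) over 9 libraries for 15022 genes, and on log2(normalised count + 1) over 6 libraries for 16825 genes with at least 10 in at least 3 libraries. Benjamini-Hochberg adjustment ran over all genes tested. Whole reads could be recovered for 99.99% of RPKM values above 0 and for 100% of drug values, to within 0.01 reads, and edgeR 4.0.16 and DESeq2 1.42.0 on those reads were alternatives. The limma fit alone was tested on simulated counts with known changes. Simulated RPKM were not used, so that test does not cover low RPKM values. Named genes were the 8 largest called rises and falls per experiment (hairpins ranked by the smaller change, drug genes with a mean of at least 100), and named peaks the 12 most enriched, the 5 longest, those of genes with the most, the 6 nearest behind a gene end and the 5 nearest to the gene's start.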

Additional observations from a re-analysis of the deposited data

How the results depend on the processing

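Peak counts moved with the definition, by construction. As defined, the 124 antisense peaks made up 4.71% of antisense and same-strand peaks together. At a fold of at least 2 there were 22, a share of 6.75%. Their median position was then 0.439, against 0.629 for same-strand peaks. At an FDR under 0.001 there were 62 (4.13%), and at 200 bp or longer 48 (3.125%). Where only coding genes were barred from the peak's strand there were 214 (7.86%), with the same-strand peaks left unchanged. With genes of unknown strand allowed, an alternative chosen after seeing the data, there were 143, with a median length of 151 bp. Of 20 tested genes with a peak of at least 2-fold, 12 were called higher and 5 lower with shDHX15-1 (60% and 25%). The counts were 9 and 4 with shDHX15-2 (45% and 20%) and 7 and 3 with both (35% and 15%). With ciclopirox they were 8 and 4 of 21 (38.1% and 19.0%). In 55 tested genes without a same-strand peak the hairpin counts were 30 and 16 (54.5% and 29.1%), 20 and 17 (36.4% and 30.9%), and 20 and 12 (36.4% and 21.8%). With ciclopirox they were 9 and 13 of 53 (17.0% and 24.5%). Over all genes the shares were 45.4% and 28.9%, 35.6% and 30.1%, 28.8% and 20.4%, and 23.5% and 25.0%. EIF4A2 with shDHX15-1 turned to -0.016 in DESeq2, -0.0079 in edgeR and -0.024 after median centring, and the cause was not tested. Genes called with both hairpins numbered 32 higher and 25 lower in edgeR and 30 and 25 in DESeq2. Of all 15022 genes tested, 3815 were higher and 3826 lower in edgeR, and 3619 and 3898 in DESeq2. Leaving out 1 library gave 32 to 36 higher and 17 to 20 lower with both hairpins. All genes gave 3996 to 4145 and 2859 to 2960 of 14790 to 14975 tested. With ciclopirox the range was 25 to 41 higher and 11 to 16 lower. All genes gave 2999 to 4469 and 3320 to 4517 of 16427 to 16574 tested. Same-numbered libraries deviated together weakly if at all, with correlations of -0.00061 to 0.095 in the knockdown and -0.108 to 0.163 with the drug. Libraries of different number gave -0.123 to 0.047 and -0.289 to 0.182, so pairing by number was not settled. A replicate block gave 37 higher and 20 lower with both hairpins, 54 and 27 with shDHX15-1, 39 and 28 with shDHX15-2, and 29 and 16 with ciclopirox. Over all genes it gave 4248 and 3048, 6796 and 4310, 5249 and 4480, and 4055 and 4381. Peaks rest on 2 RIP libraries with no values per library.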

Other observations

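Antisense peaks were unevenly spread over chromosomes. Chromosome 17 held 20 of the 124 antisense peaks (16.1%) and 8.73% of same-strand peaks, chromosome 16 held 17 (13.7%) and 7.85%, and chromosome 22 held 14 (11.3%) and 3.87%. Chromosome 19 held 9 (7.26%) and 10.6%. The 7 peaks of TOP3B lie together on chromosome 22, so its count rests in part on 1 gene. Chromosome 14 held 8 (6.45%) and 2.91%, and the 6 peaks of XRCC3 are among them. No peak on chromosome 8 entered either group. Only peaks in genes of known strand could enter, and gene strands were not counted by chromosome. The number of DHX15 peaks on chromosome 8 cannot be read from this.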
